A study of Mus musculus with 2 samples.

Results

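The 9 members described here are let-7 genes of the mouse that lie outside the Mir99 and Mir125 clusters. They are Mirlet7i, Mirlet7g, Mirlet7d, Mirlet7b, Mir98, Mirlet7f-2, Mirlet7c-2 and Mirlet7a-1, each read on its own strand, and Mirlet7f-1, which is read from the row of Gm24111. They were chosen by gene name from the 1973 genes in the deposited tables and not by a cut on their values, but with earlier results of these data known. Gm24111 (ENSMUSG00000093232.1) is annotated on the plus strand of chromosome 13 (48537825 to 48537921, build mm10), opposite Mirlet7f-1. The opposite-strand count of Gm24111 was therefore used for Mirlet7f-1. That row had 1173 opposite-strand and 2 sense counts in replicate 2, and 851 opposite-strand and 0 sense counts in replicate 1.

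Small RNA was sequenced from hearts of newborn mice (postnatal day 0) of strain B6NCrl, a C57BL/6N substrain, with total RNA as the starting material and molecules shorter than 30 nt in the libraries. The labels give 1 group of 2 libraries with no treatment and no mutant allele. Replicate 2 is the heart of pup 3 and replicate 1 is the heart of pup 1, each 1 whole heart and 1 library, and the sex of the pups was not collected. Sense-strand gene counts summed to 7630427 in replicate 2 and 6373797 in replicate 1, so that 3 counts equal 0.393 CPM in replicate 2 and 0.471 CPM in replicate 1, where CPM means counts per 1000000 sense-strand counts of the library. The heart muscle microRNA Mir208b had 108150 CPM in replicate 2 and 101723 CPM in replicate 1, whereas Mir122 of liver had 44.6 and 35.8 CPM. All 3 Mir124a genes of neurons were at 0 in both libraries, but they make the same mature sequence, so that 0 may hide reads that matched several places. The same holds for Mir1a-1 and Mir133a-1 of heart muscle, which had 8.89 and 8.24 CPM on average. Mir126a of endothelium (133150 CPM on average), Mir143 of smooth muscle (88252 CPM) and Mir451a of red blood cells (1084 CPM) were also present, so the hearts hold several cell types. In whole tissue, fewer cells of a type and less RNA per cell cannot be told apart. The share of each cell type in the let-7 levels was not tested.

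The let-7 microRNAs were first found in the worm Caenorhabditis elegans as regulators of developmental timing. In mammals they build up as tissues differentiate, and they repress growth and proliferation genes such as Lin28, Hmga2, Myc and Ras genes through the seed at the 5′ end. LIN28 in turn binds let-7 precursors in their terminal loop and blocks their maturation. In heart biology the family has been studied in the maturation of cardiomyocytes, chiefly those made from human stem cells.

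The mature 5p sequences are shown first, because the counts of a gene depend on whether its reads can be told from those of its relatives. They come from RefSeq (build GRCm38.p6), where all 9 members had a precursor. The capitals mark the seed, bases 2 to 8.
let-7i-5p: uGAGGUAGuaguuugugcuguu
let-7g-5p: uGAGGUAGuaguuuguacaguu
let-7d-5p: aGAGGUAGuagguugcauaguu
let-7b-5p: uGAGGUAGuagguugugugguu
miR-98-5p: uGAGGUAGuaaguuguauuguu
let-7f-5p, from Mirlet7f-1 and Mirlet7f-2: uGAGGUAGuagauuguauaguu
let-7c-5p, from Mirlet7c-2: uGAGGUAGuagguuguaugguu
let-7a-5p, from Mirlet7a-1: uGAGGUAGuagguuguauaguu

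All 9 genes shared 1 seed, GAGGUAG, and each 5p product was 22 nt long, so the members differ only outside the seed. Against let-7a-5p, with positions counted from 1 at the 5′ end, let-7c-5p differs by A19G and let-7f-5p by G12A. Let-7b-5p differs by A17G and A19G, let-7d-5p by U1A and U16C, let-7g-5p by G12U and U18C, and miR-98-5p by G11A and A19U. The one with the most differences is let-7i-5p, with G12U, A17G, U18C and A19U. Let-7b-5p and let-7c-5p are 1 base apart, and let-7i-5p and let-7g-5p are 2 bases apart.

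The 5p sequences of 5 members, Mirlet7i, Mirlet7g, Mirlet7d, Mirlet7b and Mir98, occurred in 1 of the 1005 RefSeq mouse precursors searched, their own. Those of the other 4 occurred in a second precursor. Let-7a-5p is also made by Mirlet7a-2, let-7c-5p by Mirlet7c-1, and let-7f-5p by Mirlet7f-1 and Mirlet7f-2. The 3p arms of the genes with a shared 5p sequence are shown next, since a 3p arm can place a read where the 5p arm cannot.
let-7a-1-3p: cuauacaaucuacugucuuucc
let-7c-2-3p: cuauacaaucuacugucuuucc
let-7f-1-3p: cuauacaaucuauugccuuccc
let-7f-2-3p: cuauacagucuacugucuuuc

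The 3p arms of Mirlet7a-1 and Mirlet7c-2 are identical, so both arms of these 2 genes occur in another precursor. The 3p arms of Mirlet7f-1 and Mirlet7f-2 each occur in 1 precursor. In stretches of 20 nt read along the sense strand of the precursor, 12 of the 75 windows of Mirlet7a-1 and 11 of the 76 windows of Mirlet7c-2 were found in another precursor. For Mirlet7f-1 it was 4 of 70 windows and for Mirlet7f-2 it was 3 of 64, and for the other 5 members it was 0. This matters here because the tables list reads that matched several places apart from the genes. Those reads numbered 5980508 in replicate 2 and 4974412 in replicate 1, which is 7.07 and 7.43 times the counts of the 9 members together. How many of them are let-7 reads was not tested, so the counts of Mirlet7a-1, Mirlet7c-2, Mirlet7f-2 and Gm24111 are uncertain as levels of the mature microRNA.

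**Figure D1:**
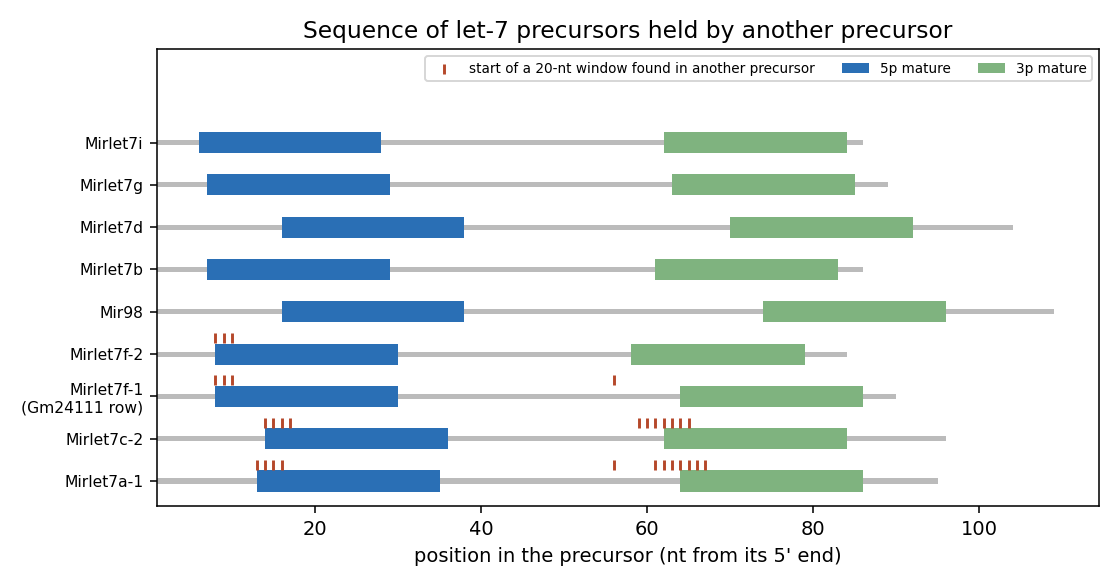
Precursors of the 9 members drawn to scale, with the position in nt from the 5′ end on the x axis, the mature 5p and 3p arms as boxes, and a tick at the start of each 20-nt window that also occurs in another RefSeq mouse precursor. Ticks fall on both arms of Mirlet7a-1 and Mirlet7c-2, mainly on the 5p arm of Mirlet7f-1 and Mirlet7f-2, and nowhere in the 5 members above them.

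A few bases beyond the 5p product separate the genes that share it. The 5p sequence with the next 5 bases of the precursor in capitals is given for the genes concerned.
Mirlet7a-1: ugagguaguagguuguauaguuUUAGG
Mirlet7c-2: ugagguaguagguuguaugguuUUGGG
Mirlet7f-1: ugagguaguagauuguauaguuGUGGG
Mirlet7f-2: ugagguaguagauuguauaguuUUAGG

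A run of 23 nt from the 5p start, 1 base longer than the mature form, was found in no other precursor for Mirlet7f-1 and for Mirlet7f-2. Mirlet7a-1 and Mirlet7c-2 needed 24 nt. The capitals of Mirlet7a-1 and Mirlet7f-2 are the same 5 bases, UUAGG, and those of Mirlet7f-1 are GUGGG. The tables hold counts per gene and no read lengths or ends, so the arm and the length of the counted reads were not tested.

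The 9 members took 11.1% of the sense-strand counts in replicate 2 (95% interval by the Clopper-Pearson method, 11.06 to 11.10) and 10.5% in replicate 1 (10.48 to 10.52), a mean of 10.8% ± 0.411 (SD, n = 2). The 2 libraries differed by more than counting error. With the reads that matched several places added to the total, the mean share was 6.06%. Mirlet7i and Mirlet7g alone gave 79.4% of the members' counts in replicate 2 and 80.3% in replicate 1. With Mirlet7d added, the share was 89.8% and 89.99%. At the other end, Mirlet7a-1, Mirlet7c-2 and Gm24111 gave 0.406% and 0.321% of the members' counts. CPM was not divided by gene length, since each read is 1 small RNA.

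Mirlet7i (ENSMUSG00000065406.2) had 45021 CPM in replicate 2 and 42605 CPM in replicate 1. It lies on chromosome 10 (122985640 to 122985724, minus strand, mm10), in an exon of D630033A02Rik, which is annotated as a transcribed processed pseudogene. Mirlet7g (ENSMUSG00000065440.1) had 42997 CPM in replicate 2 and 41705 CPM in replicate 1. It lies on chromosome 9 (106178840 to 106178927, plus strand), in an intron of Wdr82, which codes for a WD repeat protein of histone methyltransferase complexes. These 2 genes stand alone in their loci, and their levels were close together. Mirlet7i exceeded Mirlet7g by 1.05-fold in replicate 2 (exact 95% interval 1.042 to 1.052) and by 1.02-fold in replicate 1 (1.016 to 1.027).

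Among all genes ranked by mean CPM, Mirlet7i was at rank 7 and Mirlet7g at rank 9. Mir30e stood just above Mirlet7i, at 49528 CPM, Mir99a stood between them at 43001 CPM, and Mir26b stood below Mirlet7g at 29909 CPM. The order around Mir99a was not the same in the 2 hearts. Mir99a had 37938 CPM in replicate 2, below both let-7 genes, and 48063 CPM in replicate 1, above both.

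On chromosome 13, 3 members lie side by side on the minus strand, in exons of the lincRNA gene 6720427I07Rik. Mirlet7d (ENSMUSG00000065453.1, 48536012 to 48536114) is 1714 bases from Mirlet7f-1 (48537829 to 48537917), which is 261 bases from Mirlet7a-1 (ENSMUSG00000065421.2, 48538179 to 48538272). Mirlet7d had 11557 CPM in replicate 2 and 10189 CPM in replicate 1, at rank 20 in both hearts. The Gm24111 row, which stands for Mirlet7f-1, had 154 CPM in replicate 2 and 134 CPM in replicate 1. Mirlet7a-1 had 147 CPM in replicate 2 and 96.8 CPM in replicate 1.

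Mirlet7d thus had far more counts than its neighbours. It exceeded Gm24111 by 75.2-fold in replicate 2 (exact 95% interval 71.0 to 79.7) and by 76.3-fold in replicate 1 (71.3 to 81.7). It exceeded Mirlet7a-1 by 78.8-fold in replicate 2 (74.3 to 83.7) and by 105-fold in replicate 1 (97.2 to 114). The ratio to Gm24111 was the same within counting error in the 2 hearts, and the ratio to Mirlet7a-1 was not. Mirlet7a-1 over Gm24111 was 0.954 in replicate 2 (0.878 to 1.036) and 0.725 in replicate 1 (0.653 to 0.805). Of these 3 neighbours, Mirlet7d is the 1 whose sequence occurs in no other precursor, and the part of shared sequence in these ratios was not tested.

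On chromosome 15, Mirlet7c-2 (ENSMUSG00000065608.1, 85706603 to 85706697, plus strand) and Mirlet7b (ENSMUSG00000065564.1, 85707319 to 85707403, plus strand) lie 621 bases apart, in exons of the long noncoding gene Lncppara. Mirlet7b had 4540 CPM in replicate 2 and 4413 CPM in replicate 1, at ranks 27 and 26. Mirlet7c-2 had 149 CPM in replicate 2 and 107 CPM in replicate 1. The level of Mirlet7b thus differed by 1.03-fold between the hearts, and that of its neighbour by 1.40-fold. Mirlet7b exceeded Mirlet7c-2 by 30.4-fold in replicate 2 (exact 95% interval 28.7 to 32.3) and by 41.4-fold in replicate 1 (38.4 to 44.8), so this ratio also differed between the hearts by more than counting error.

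On the X chromosome, Mirlet7f-2 (ENSMUSG00000065602.1, 151912346 to 151912428, plus strand) and Mir98 (ENSMUSG00000065536.2, 151913214 to 151913321, plus strand) lie 785 bases apart in an intron of Huwe1, the gene of a ubiquitin ligase. Mir98 had 3667 CPM in replicate 2 and 3592 CPM in replicate 1. Mirlet7f-2 had 2593 CPM in replicate 2 and 2170 CPM in replicate 1. These 2 neighbours were closer in level than Mirlet7b and Mirlet7c-2. Mir98 exceeded Mirlet7f-2 by 1.41-fold in replicate 2 (exact 95% interval 1.389 to 1.441) and by 1.66-fold in replicate 1 (1.621 to 1.691).

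The 2 genes of let-7f-5p differed widely although they make the same 5p product. Gm24111 over Mirlet7f-2 was 0.0593 in replicate 2 (exact 95% interval 0.0559 to 0.0629) and 0.0615 in replicate 1 (0.0573 to 0.0659). In other words Mirlet7f-2 held 16.9-fold more counts in replicate 2 and 16.3-fold more in replicate 1. The intervals of the 2 hearts overlap. Reads of let-7f-5p that end with the mature form would match both genes and could be counted for neither.

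**Figure D2:**
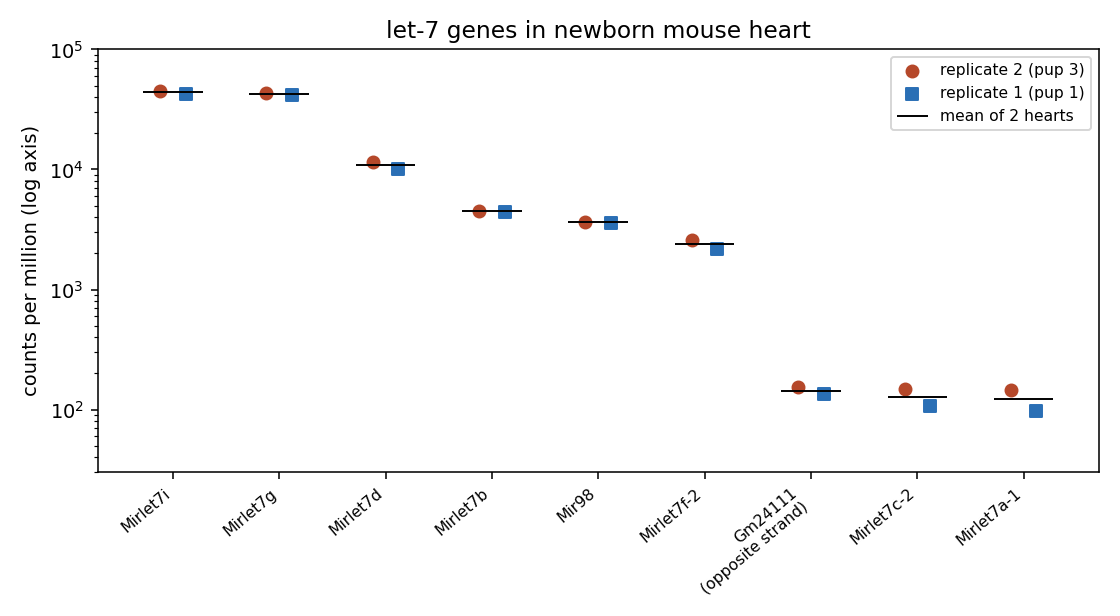
CPM of the 9 members on a log axis, with circles for replicate 2, squares for replicate 1 and a line at the mean of the 2 hearts. Mirlet7i and Mirlet7g lie at 41705 to 45021 CPM, the next 4 members at 2170 to 11557 CPM, and Gm24111, Mirlet7c-2 and Mirlet7a-1 at 96.8 to 154 CPM.

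By mean CPM the order was Mirlet7i (43813 ± 1708, SD, n = 2), Mirlet7g (42351 ± 913), Mirlet7d (10873 ± 967), Mirlet7b (4477 ± 89.7), Mir98 (3630 ± 53.0), Mirlet7f-2 (2381 ± 299), Gm24111 (144 ± 14.3), Mirlet7c-2 (128 ± 30.1) and Mirlet7a-1 (122 ± 35.2). The order was the same in both hearts, and the highest member was 360-fold above the lowest. For the first 6 steps of this order, the exact 95% interval of the ratio between neighbours lay above 1 in both libraries. Between hearts, however, the SD of Mirlet7i was larger than its distance from Mirlet7g. Gm24111 and Mirlet7c-2 differed by more than counting error in replicate 1 (1.253-fold, 1.13 to 1.39) and not in replicate 2 (1.03-fold, 0.949 to 1.119). Mirlet7c-2 and Mirlet7a-1 did not differ by more than counting error in replicate 2 (1.02-fold, 0.936 to 1.105) or in replicate 1 (1.10-fold, 0.985 to 1.229).

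The members with a 5p sequence of their own had 3630 to 43813 CPM on average, and those with a shared one had 122 to 2381 CPM. These counts leave out reads that matched several places, so the gap between the 2 sets cannot be read as a gap in mature microRNA. The part of shared sequence in it was not tested, and the same comparison was not made over all features. The members with a 5p sequence of their own took 97.3% of the members' counts in replicate 2 and 97.6% in replicate 1. The median member had 3630 CPM, against 64.6 CPM for the 358 genes with 10 or more counts in both libraries.

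Further let-7 genes were looked up from a list of 6 names. No gene was found under the name Mirlet7e, and Mirlet7f-1 is the member read from the row of Gm24111. Mirlet7a-2, the second source of let-7a-5p, had 109 CPM in replicate 2 and 77.3 CPM in replicate 1. Mirlet7c-1, the second source of let-7c-5p, had 148 CPM in replicate 2 and 126 CPM in replicate 1. These levels lie beside those of Mirlet7a-1 and Mirlet7c-2, so all 4 genes that share let-7a-5p or let-7c-5p were below 150 CPM in both hearts. Let-7j and let-7k are listed in RefSeq as Mir7j and Mir7k, and these had 287 and 0 counts in replicate 2 and 155 and 1 counts in replicate 1.

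LIN28 is known to recognise GGAG near the 3′ side of the terminal loop, so the 12 bases of each precursor that run from the loop into the first 3 bases of the 3p arm are shown, with GGAG in capitals. For Mirlet7g, whose 3p arm starts 1 base earlier than the others, they end 1 base further in.
Mirlet7i: uGGAGauaacug
Mirlet7g: aGGAGauaacug
Mirlet7d: aGGAGuuaacua
Mirlet7f-1: aGGAGauaacua
Mirlet7f-2: uGGAGauaacua
Mirlet7a-1: gGGAGauaacua
Mirlet7b: cgaagauaacua
Mir98: agaagauaacua
Mirlet7c-2: cugcgguaacua

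GGAG was found on the sense strand of 6 of the 9 precursors, each time at this place, and not in Mirlet7b, Mir98 and Mirlet7c-2. It was also in 46.4% of the 869 RefSeq precursors of genes in the tables, so a match is common. The 6 members with GGAG had levels of 122 to 43813 CPM and the 3 without it 128 to 4477 CPM. A match describes the letters and not binding, and Lin28 itself is not measured by small RNA counts.

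Next, the 2 hearts were compared. With 1 group there is no contrast between conditions, so each gene was tested between the 2 libraries with a 2-sided exact binomial test given the library totals, with Benjamini-Hochberg adjustment over all 436 features tested. This compares the 2 libraries and covers counting error only. All 9 members had more CPM in replicate 2. When the most abundant gene, Mir126a, was left out of the totals, Mir98 turned to a log2 ratio of -0.0067. With the full totals, 8 of the 9 passed an adjusted p of 0.05 in the exact binomial test. Over all features, 31.2% were called, 19.3% as higher in replicate 2 and 11.9% as higher in replicate 1. Calls are more frequent where counts are high. Among the 175 features with 1000 or more counts, a range that holds all 9 members, 64.6% were called, 37.1% as higher in replicate 2 and 27.4% as higher in replicate 1. The median log2 ratio of replicate 2 over replicate 1 was 0.18 for the members, 0.03 for all features and 0.01 for the features with 1000 or more counts, and 32.8% of all features had a ratio above the members' median.

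The 2 most deeply counted members differed little. Mirlet7i had 343532 counts in replicate 2 and 271558 in replicate 1, a CPM ratio of 1.06 (exact 95% interval 1.051 to 1.062, exact binomial adjusted p = 3.46e-101). Mirlet7g had 328083 and 265822 counts, a ratio of 1.03 (1.026 to 1.036, exact binomial adjusted p = 2.10e-30). The call of Mirlet7g was lost when Mir126a was left out of the totals (exact binomial adjusted p = 0.127). Mirlet7b, with 34642 and 28128 counts, had a ratio of 1.03 (1.013 to 1.045, exact binomial adjusted p = 0.00172). Its call was lost with TMM factors (exact binomial adjusted p = 0.0588), with DESeq2 size factors (0.0960) and without Mir126a (0.879). Mir98 was the member that did not pass, with 27982 counts in replicate 2 and 22896 in replicate 1, a ratio of 1.02 (1.003 to 1.039, exact binomial adjusted p = 0.0642).

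The other 5 members had ratios above 1.1. Mirlet7a-1, with 1119 counts in replicate 2 and 617 in replicate 1, had 1.51 (exact 95% interval 1.37 to 1.67, exact binomial adjusted p = 3.55e-16). Mirlet7c-2, with 1138 and 679 counts, had 1.40 (1.27 to 1.54, exact binomial adjusted p = 1.85e-11). These are the 2 genes whose 5p and 3p arms both occur in another precursor. Mirlet7f-2 had 19783 and 13831 counts and a ratio of 1.19 (1.17 to 1.22, exact binomial adjusted p = 3.10e-57), and Gm24111 had 1.15 (1.05 to 1.26, exact binomial adjusted p = 0.00661). Mirlet7d, at 88184 and 64941 counts, had 1.13 (1.12 to 1.15, exact binomial adjusted p = 2.12e-130).

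The ratio was 1.02 to 1.13 for the 5 members with a 5p sequence of their own and 1.15 to 1.51 for the 4 with a shared one. The border between these ranges lies within counting error, since the interval of Gm24111 (1.05 to 1.26) holds the ratio of Mirlet7d (1.13). The part of shared sequence in the ratios was not tested, and the same comparison was not made over all features. Mirlet7a-2, Mirlet7c-1 and Mir7j, which were also compared between the hearts, had ratios of 1.41, 1.18 and 1.55, and all 3 passed as higher in replicate 2. Mir7j is not among the 13 RefSeq genes with the seed GAGGUAG, and whether its sequence is shared was not tested. Of the 17 cell type markers looked up, 6 had a higher CPM in replicate 2, 8 had a lower one and 3 were at 0 in both. Mir126a had 122186 CPM in replicate 2 and 144115 CPM in replicate 1, and Mir143 had 85077 and 91427 CPM. The markers of red blood cells went both ways, with Mir451a at 1237 CPM in replicate 2 and 931 CPM in replicate 1, and Mir144 at 71.2 and 112 CPM. So did those of leukocytes, with Mir155 at 169 and 113 CPM and Mir223 at 396 and 409 CPM. Mir206 of skeletal muscle had 104 and 71.2 CPM. The heart muscle markers went both ways, with Mir208b higher and Mir208a lower in replicate 2 (11988 CPM, against 15419 CPM in replicate 1). The part of cell types in the let-7 ratios was not tested. The share of reads that matched several places was 34.6% in replicate 2 and 35.9% in replicate 1, and the part of those reads in the ratios was not tested. With 1 library per heart, a difference between animals cannot be told apart from a difference between library preparations. When a spread between libraries was assumed (edgeR exact test with a preset coefficient of variation of 0.1), 0 of the 9 members passed, with 2 at an unadjusted p under 0.05.

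**Figure D3:**
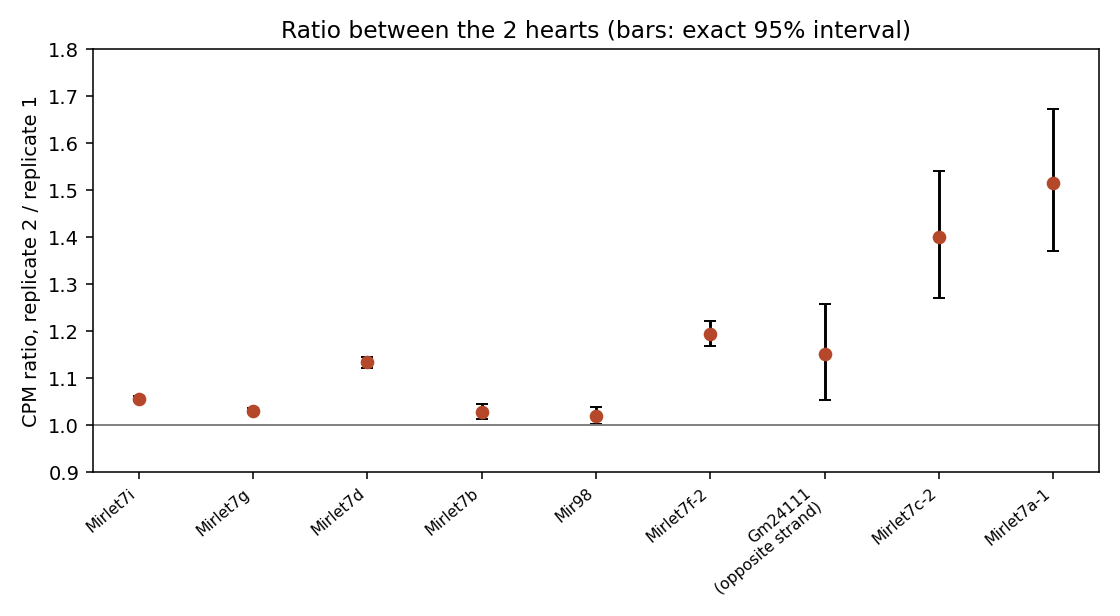
CPM ratio of replicate 2 over replicate 1 for each member, with exact 95% intervals for counting error and a line at 1. All 9 ratios lie above 1, from 1.02 for Mir98 (0.995 without Mir126a in the totals) to 1.51 for Mirlet7a-1, and the intervals are widest for the 3 members with the fewest counts.

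**Figure D4:**
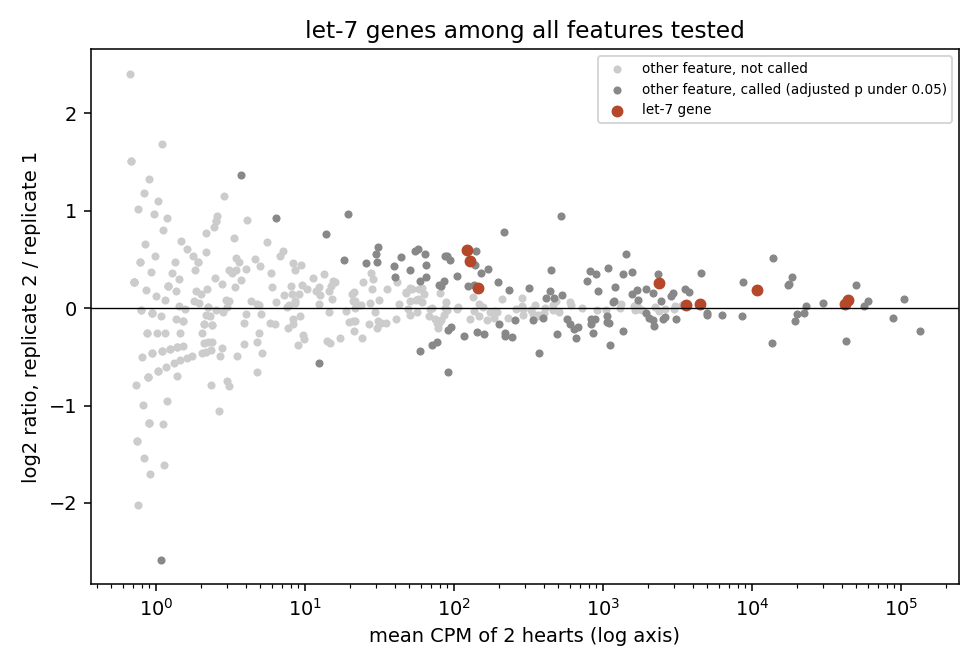
Log2 ratio of replicate 2 over replicate 1 against mean CPM (log axis) for the 436 features tested, with called features in dark grey, the others in light grey and the 9 let-7 members in red. The members have log2 ratios of 0.03 to 0.60 and lie within the range of other features of like CPM.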

How the data were processed

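The authors deposited 1 table of read counts per gene for each heart, in whole numbers and without normalization. Per the file headers that accompany the tables, build mm10 and GENCODE annotation M4 were used. The names of the aligner and the counter are not given in sources used here. Each table has 3 count columns, and in each gene row the last 2 add up to the first. The middle column, with 92.8% of gene counts in replicate 2 and 92.9% in replicate 1, was taken as the sense strand and the last as the opposite strand. This reading comes from the values. The totals leave out 3 kinds of rows without a gene, namely reads matching several places (34.6% and 35.9% in replicates 2 and 1), unmapped reads (15.5% and 12.6%) and reads in no gene (2.28% and 1.93%).

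Gene names and positions came from GENCODE M21 (1894 of 1973 identifiers matched), and sequences from RefSeq. No genome sequence was used here, so copies were searched in precursors only. CPM used the sense-strand totals. Log2 ratios added 0.5 counts. All genes whose counts in both libraries summed to 10 or more, and the opposite-strand count of Gm24111, were tested together with an exact binomial test and Benjamini-Hochberg adjustment across all genes. The test was tested on simulated data that held counting error only, with no further spread between libraries, so its behaviour under such a spread was not tested there. Ratios and shares carry exact Clopper-Pearson intervals, which cover counting error only, as do floors of 3 counts.

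The named genes were the members, 6 other let-7 names, host genes and the neighbours of Mirlet7i and Mirlet7g in rank. With 2 libraries no gene could be named for a like pattern. The members, lists and tests were chosen with earlier results of these data known. Alternatives were counts of both strands, added opposite-strand features, other scalings, count minimums and added counts, thinning, preset spreads (edgeR exact test) and each library alone. Counting calls among features with 1000 or more counts was chosen after seeing the data. Tools were edgeR 4.0.16 (TMM, exact test) and DESeq2 1.42.0 (size factors) in R 4.3.3, and SciPy 1.17.1, NumPy 2.4.6, matplotlib 3.10.9 and pandas 2.3.3 in Python 3.11.15.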

Additional observations from a re-analysis of the deposited data

Results flagged for a closer look

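Mirlet7b had counts on the opposite strand, where no count of the comparisons was taken, with 18 in replicate 2 and 16 in replicate 1. Both are above 3 counts, the floor taken here as an approximate upper limit for a count of 0. They are 0.0519% (exact Clopper-Pearson 95% interval 0.0308 to 0.0821) and 0.0569% (0.0325 to 0.0923) of the counts at Mirlet7b on both strands. The other 7 members read on their own strand had 0 opposite-strand counts in both libraries. The source of these reads was not tested.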

How the results depend on the processing

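The share of counts taken by the members, 10.8%, was 10.02% with the counts of both strands, 10.02% with opposite-strand counts in the total, 6.06% with reads matching several places in the total and 12.4% with the most abundant gene, Mir126a, left out. It was 10.5% to 11.1% with 1 library left out. The count of members called between hearts, 8 of 9, was 7 with TMM or DESeq2 size factors, 6 without Mir126a in the totals, 9 with a minimum of 100 counts, and 0 with a preset coefficient of variation of 0.1 or 0.2 (edgeR exact test, 2 and 0 members at an unadjusted p under 0.05). Over all features, 136 calls became 1 and 0 under these presets (29 and 4 unadjusted). In the exact binomial test Mirlet7b fell short with TMM (adjusted p = 0.0588), DESeq2 size factors (0.0960) and without Mir126a (0.879), over a range of 0.00109 to 0.879, and Mirlet7g without Mir126a (0.127, range 1.33e-30 to 0.127). Mir98 passed at the minimum of 100 counts (0.0419, range 0.0419 to 0.798) and turned to a log2 ratio of -0.0067 without Mir126a, a setting that shifts every ratio by the same amount. The other 8 members and the 8 ratios compared between members kept their direction under every alternative run. The median log2 ratio of the members was 0.15 to 0.18. No paired analysis was possible because there is 1 group. The test between hearts could not be run with a library left out. No genome was searched, so the members left out for a shared 5p sequence were those that share it with another precursor.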
